A study of Homo sapiens with 240 samples.

Results

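HEK293T cells, a human embryonic kidney line, labelled as knocked out for the transcription factors TFEB and TFE3 (TFEB/TFE3 DKO) were compared with WT HEK293T cells of the same experiment, both given only the solvent DMSO. The 6 libraries were taken by their labels from the table of the TFEB and TFE3 experiment: 3 DKO libraries under DMSO and 3 WT libraries under DMSO, out of 36 libraries in that table and 240 in the series. The labels count the DMSO libraries as time 0 h. The other 30 libraries of the table come from the same lines at 2, 4, 8, 16 and 24 h of 991, a small molecule that activates the kinase AMPK, with 3 libraries for each line and time. All cells were grown in DMEM with 10% serum. The labels do not say how the genes were disrupted, whether the DKO line is 1 clone, or whether the 3 libraries of a group came from separate cultures. Effects of the lost factors and differences between lines of cells therefore cannot be told apart, and the p-values given here rest on the spread among 3 libraries a group, which may be technical. RNA per cell was not measured, so every level is a share of the RNA sequenced.

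TFEB, TFE3, MITF and TFEC form the MiT/TFE family of basic helix-loop-helix leucine zipper factors. They bind E-box sequences around the letters CACGTG, and many promoters of lysosomal genes carry a longer form of this element. In fed cells TFEB and TFE3 are phosphorylated downstream of the kinase mTORC1, which is brought to the lysosome by Rag GTPases, and stay in the cytoplasm. Starvation or lysosomal damage lets them enter the nucleus, where they raise genes of lysosomes, autophagy and mitochondria. The folliculin complex, made of FLCN with FNIP1 or FNIP2, acts on the Rag GTPases in this pathway.

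Promoter sequence places this element next to several of the genes described here. The 80 bases shown for each gene come from RefSeq promoters of build GRCh38.p14, are read 5′ to 3′ on the gene's own strand, and have every CACGTG in capitals. They were chosen as reported MiT/TFE targets whose levels are given below: MCOLN1, the lysosomal calcium channel mucolipin 1 (chr19:7522543-7522622, plus strand); CTSD, the protease cathepsin D (chr11:1763935-1764014, minus strand); RRAGC, the Rag GTPase RagC (chr1:38859845-38859924, minus strand); LAMP1, a major lysosomal membrane protein (chr13:113297040-113297119, plus strand); and GLA, the lysosomal enzyme α-galactosidase A (chrX:101407926-101408005, minus strand), whose 300-base promoter holds no CACGTG.
MCOLN1: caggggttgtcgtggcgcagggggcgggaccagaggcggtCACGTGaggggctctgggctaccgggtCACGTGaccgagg
CTSD: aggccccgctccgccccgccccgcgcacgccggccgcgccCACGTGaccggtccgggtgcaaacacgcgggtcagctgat
RRAGC: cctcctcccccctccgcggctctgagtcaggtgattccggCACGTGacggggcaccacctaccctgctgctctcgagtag
LAMP1: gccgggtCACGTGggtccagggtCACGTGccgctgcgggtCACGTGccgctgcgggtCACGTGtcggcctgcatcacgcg
GLA: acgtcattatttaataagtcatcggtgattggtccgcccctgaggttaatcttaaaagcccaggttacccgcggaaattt

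In the bases shown, the first match lies 41 bases before the annotated start in MCOLN1, 47 in CTSD, 112 in RRAGC and 192 in LAMP1. The 300-base promoter of LAMP1 holds 6 matches, of which 4 lie in the bases shown. MCOLN1, CTSD, RRAGC and LAMP1 were higher in DKO cells, and GLA was among the genes with the largest falls. The genes shown do not stand for all targets. SQSTM1, whose 300-base promoter also holds no CACGTG, was higher in DKO cells, and SCPEP1 and NRBF2, which carry it, were not called. Among the targets with a matched promoter 10 of 12 with CACGTG rose, and 13 of 16 without it.

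The deposited values are TPM, a length-corrected share of the transcripts of a library, with 1 value per gene and library. Differences are DKO minus WT on the log2(TPM + 1) scale, so that 1 is a doubling and low genes show less than their true fold. A gene was called at an adjusted p under 0.05 (limma, Benjamini-Hochberg over all genes tested). Of 13746 genes with at least 1 TPM in at least 3 of the 36 libraries, 5163 (37.6%) were called higher in DKO cells and 1884 (13.7%) lower. Most differences were small: 536 genes rose by at least 1.5-fold (3.9%) and 208 fell by as much (1.51%), and 58 rose at least 2-fold (0.422%) and 31 fell at least 2-fold (0.226%). The median gene was 0.11 higher in DKO cells. TPM fixes only a sum over genes, and median-ratio scaling of the libraries took the median to -0.004 and the split to 3155 higher (23%) and 3470 lower (25.3%). A difference near 0.11 is therefore at the level of the median gene. TPM keeps no read depth, so the depth of these libraries is unknown. Summed over genes, the TPM came to 403540 to 404301 in DKO libraries and 411862 to 413006 in WT libraries.

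The targeted genes were still measured as RNA in the cells labelled DKO. TFE3 (X, 49028726 to 49043517, minus strand, GRCh38) had 8.44, 7.18 and 7.62 TPM in DKO libraries, against 10.3, 9.79 and 9.23 TPM in WT libraries. The groups did not overlap, and TFE3 fell by 0.30 ± 0.06 (log2 ± SE, limma adjusted p = 0.00026). TFEB had 1.63, 1.58 and 1.91 TPM in DKO libraries, against 1.80, 2.20 and 2.22 TPM in WT libraries. These ranges overlapped and the difference of -0.18 ± 0.14 did not pass (adjusted p = 0.31). A gene-level TPM does not show an edit within a transcript or the amount of protein, so these levels do not check the labels. MITF, the family member that was not targeted, had 2.58, 2.31 and 1.89 TPM in DKO libraries, against 1.43, 1.59 and 1.81 TPM in WT libraries. It rose by 0.32 ± 0.09 (adjusted p = 0.0038), a call that was lost once a trend with transcript length, described below, was removed (0.13, adjusted p = 0.24) and with quantile normalization (0.20, adjusted p = 0.065). TFEC was too low to be tested.

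Genes reported as direct MiT/TFE targets were for the most part higher, not lower, in the untreated DKO cells. Of 49 listed genes, 44 were tested, and 36 rose while 1 fell, with a median difference of 0.34 against 0.11 for all genes. With median-ratio scaling 25 were called higher and 5 lower. SQSTM1, which encodes the autophagy receptor p62 (5, 179807003 to 179838077, plus strand), had 84, 83.6 and 86 TPM in DKO libraries, against 45.2, 48.9 and 49.2 TPM in WT libraries. The libraries of the lines were far apart, and the rise was 0.81 ± 0.04 (adjusted p = 7.7e-16). SQSTM1 overlaps MRNIP on the genome, and no source used here states whether strand was counted.

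CTSD had 94.1, 88.6 and 94.8 TPM in DKO libraries, against 57, 56.6 and 63 TPM in WT libraries, a rise of 0.64 ± 0.05 (adjusted p = 8.6e-12). SESN2, a stress-induced inhibitor of mTORC1, had 29.7, 26.4 and 28.5 TPM in DKO libraries, against 16.0, 15 and 15.7 TPM in WT libraries, a rise of 0.82 ± 0.06. GABARAPL1, an autophagosome protein of the ATG8 family, rose by 0.81 ± 0.05. In each of these genes every DKO library lay above every WT library. MCOLN1 averaged 10.2 ± 0.93 TPM in DKO cells and 6.70 ± 0.47 TPM in WT cells (SD, n = 3 each), a rise of 0.54. RRAGC averaged 18.7 ± 1.4 and 13 ± 0.64 TPM in DKO and WT cells, and LAMP1 43.7 ± 2.0 and 32.5 ± 0.24 TPM. RRAGC rose by 0.49 and LAMP1 by 0.42.

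GLA was the reported target that fell. It had 229.5, 214 and 226 TPM in DKO libraries, against 595, 547 and 598 TPM in WT libraries (X, 101397791 to 101408013, minus strand). The DKO level was 0.385 times the WT level, with no overlap, a fall of 1.37 ± 0.04 (adjusted p = 3.2e-22). The gene overlaps a readthrough transcript, RPL36A-HNRNPH2, on the opposite strand. WIPI1, TMEM55A, UVRAG, ASAH1, SCPEP1, NRBF2 and PGF did not pass, with differences of -0.22 (PGF) to 0.21 (WIPI1). WIPI1 passed without DKO replicate 3 (0.29) or WT replicate 2 (0.30), and PGF without WT replicate 1 (-0.28). PGF, UVRAG, ASAH1 and SCPEP1 were called lower under median-ratio scaling.

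**Figure D1:**
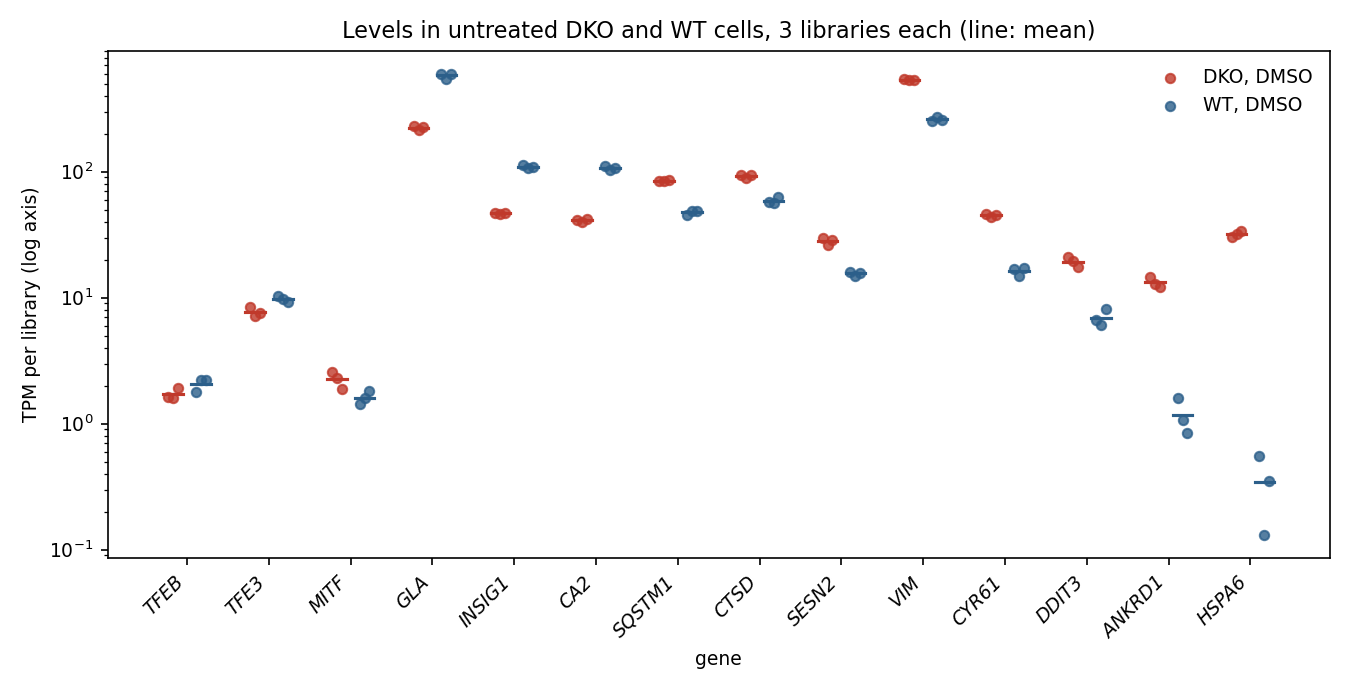
TPM of 14 genes on a log axis in the 3 DKO libraries (red) and 3 WT libraries (blue) under DMSO, with a line at each mean. TFEB is the gene whose libraries overlap between the lines, GLA, INSIG1 and CA2 are lower in DKO cells, and HSPA6 averages 32 TPM in DKO cells against 0.346 TPM in WT cells.

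**Figure D2:**
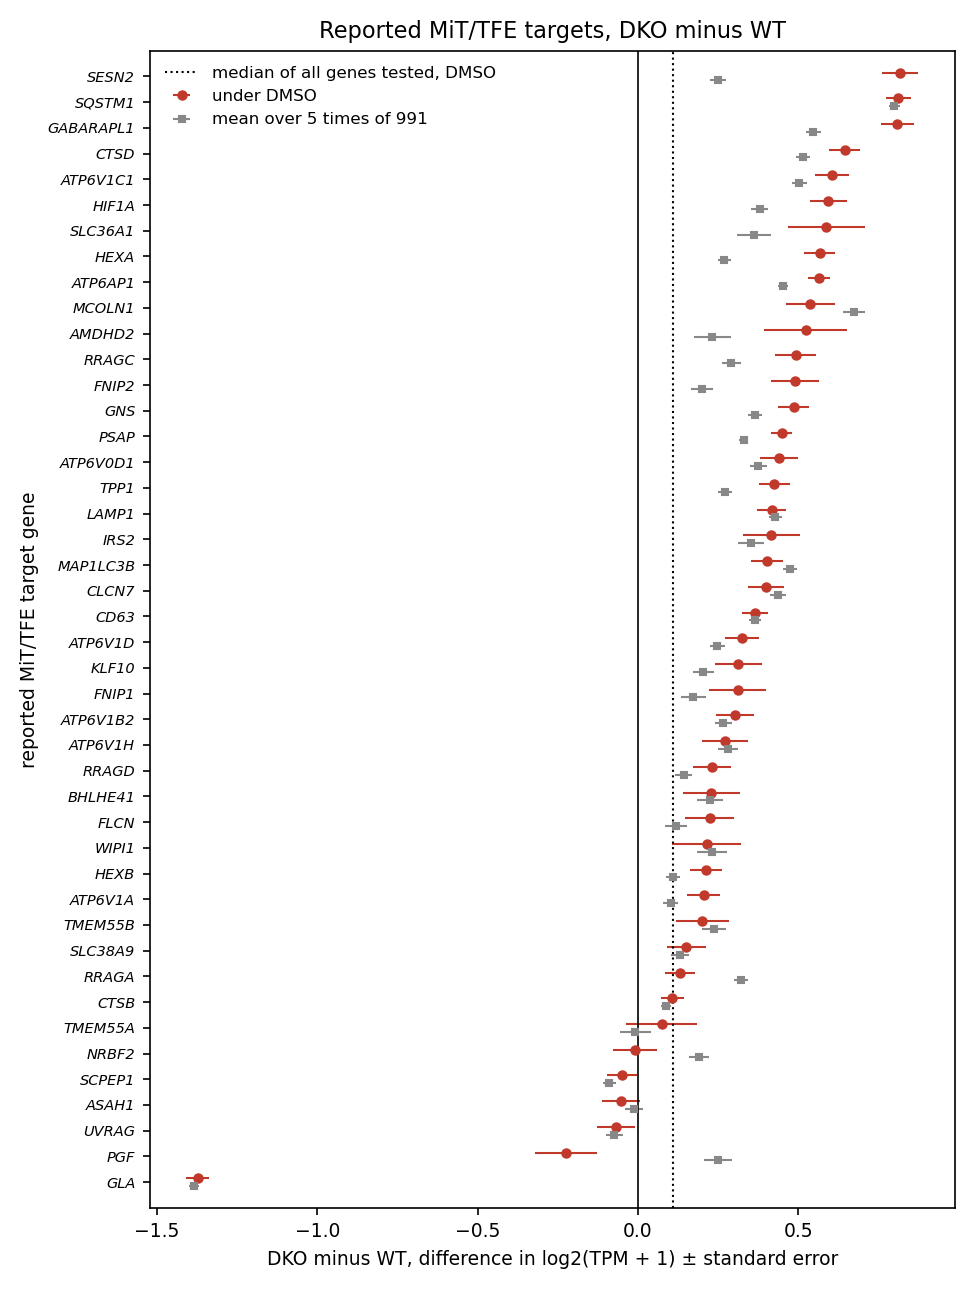
Difference of each of the 44 tested MiT/TFE targets, DKO minus WT in log2(TPM + 1) with its standard error, under DMSO (red circles) and as the mean over 5 times of 991 (grey squares). The dotted line marks the median of all genes tested, 0.11, and GLA stands alone on the left at -1.37 under DMSO and -1.38 over 991.

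The parts of the lysosome did not all move together. Among the 20 tested subunits and accessory proteins of the V-ATPase, the proton pump that acidifies the lysosome, 15 rose and none fell (median 0.31). With median-ratio scaling 13 were higher and 2 lower. ATP6V0A1 averaged 25.7 ± 1.2 TPM in DKO cells and 16.1 ± 1.1 TPM in WT cells, a rise of 0.64, and ATP6V1C1 averaged 22.6 ± 0.41 and 14.5 ± 0.32 TPM, a rise of 0.61. Of 47 lysosomal membrane proteins, 32 rose and 1 fell, with a median of 0.20, and median-ratio scaling gave 21 and 5 (median 0.07). CD68, a heavily glycosylated protein of late endosomes and lysosomes, had 5.82, 5.18 and 5.60 TPM in DKO libraries, against 1.67, 1.25 and 0.806 TPM in WT libraries, a rise of 1.56 ± 0.10. PQLC2, an exporter of cationic amino acids, rose by 0.76, and SLC29A3, a lysosomal nucleoside transporter, by 0.75. The lysosomal lipid transporter ABCA2 was the member that fell, by 0.22, a call lost without DKO replicate 2 (-0.14) or WT replicate 3 (-0.17).

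Lysosomal hydrolases and their cofactors were divided: 21 of 50 rose (42%) and 10 fell (20%), beside 37.6% and 13.7% of all genes. Their median of 0.06 lies below that of all genes. Median-ratio scaling turned the balance to 13 higher and 19 lower. SMPD1, acid sphingomyelinase, rose by 0.66 and HEXA, the α subunit of β-hexosaminidase, by 0.57. SUMF1, which activates sulfatases, rose by 0.60. CTSC, the dipeptidyl peptidase cathepsin C, averaged 20.6 ± 1.4 TPM in DKO cells and 34.6 ± 1.8 TPM in WT cells, a fall of 0.72. IFI30, a lysosomal thiol reductase, fell by 0.63. GLA showed the largest fall of the list.

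Autophagy genes were mostly higher: 35 of 55 rose and 3 fell (median 0.30), and 31 rose and 10 fell with median-ratio scaling. NBR1, a cargo receptor like p62, had 33, 30.7 and 29.98 TPM in DKO libraries, against 17.7, 17.8 and 18.1 TPM in WT libraries, a rise of 0.77 ± 0.04. MAP1LC3B, the LC3B protein of the autophagosome membrane, rose by 0.40. BNIP3, a mitophagy receptor, fell by 0.32, ULK2, an autophagy-initiating kinase, by 0.29, and ATG16L2, a relative of a core autophagy factor, by 0.29. The call of ULK2 was lost without WT replicate 2 (-0.22), and that of ATG16L2 without DKO replicate 1 or 2 or WT replicate 1 or 3 (-0.30 to -0.25).

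The nutrient-sensing machinery upstream of TFEB and TFE3 held rises and falls, with a median near that of all genes. Of 38 genes of the folliculin complex, the Rag GTPases, Ragulator and their regulators, 22 rose (57.9%) and 7 fell (18.4%). Of all genes, 37.6% rose and 13.7% fell. The median of the list was 0.14, against 0.11 for all genes. Median-ratio scaling gave 12 higher and 9 lower, and removal of the length trend gave 10 and 8. MTOR averaged 18.3 ± 0.76 TPM in DKO cells and 11.3 ± 0.83 TPM in WT cells, a rise of 0.65, and GATSL2, a homologue of the arginine sensor CASTOR1, rose by 0.63. FNIP2 rose by 0.49, FNIP1 by 0.31, RRAGD by 0.23 and FLCN by 0.22. The calls of FNIP1, RRAGD and FLCN were lost with median-ratio scaling, where their differences were 0.20, 0.11 and 0.10, and that of FLCN also without WT replicate 2 (0.20). The Ragulator subunits LAMTOR4 and LAMTOR2, whose transcripts are short, fell by 0.40 and 0.34. TBC1D7, a subunit of the TSC complex that restrains mTORC1, fell by 0.44.

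**Figure D3:**
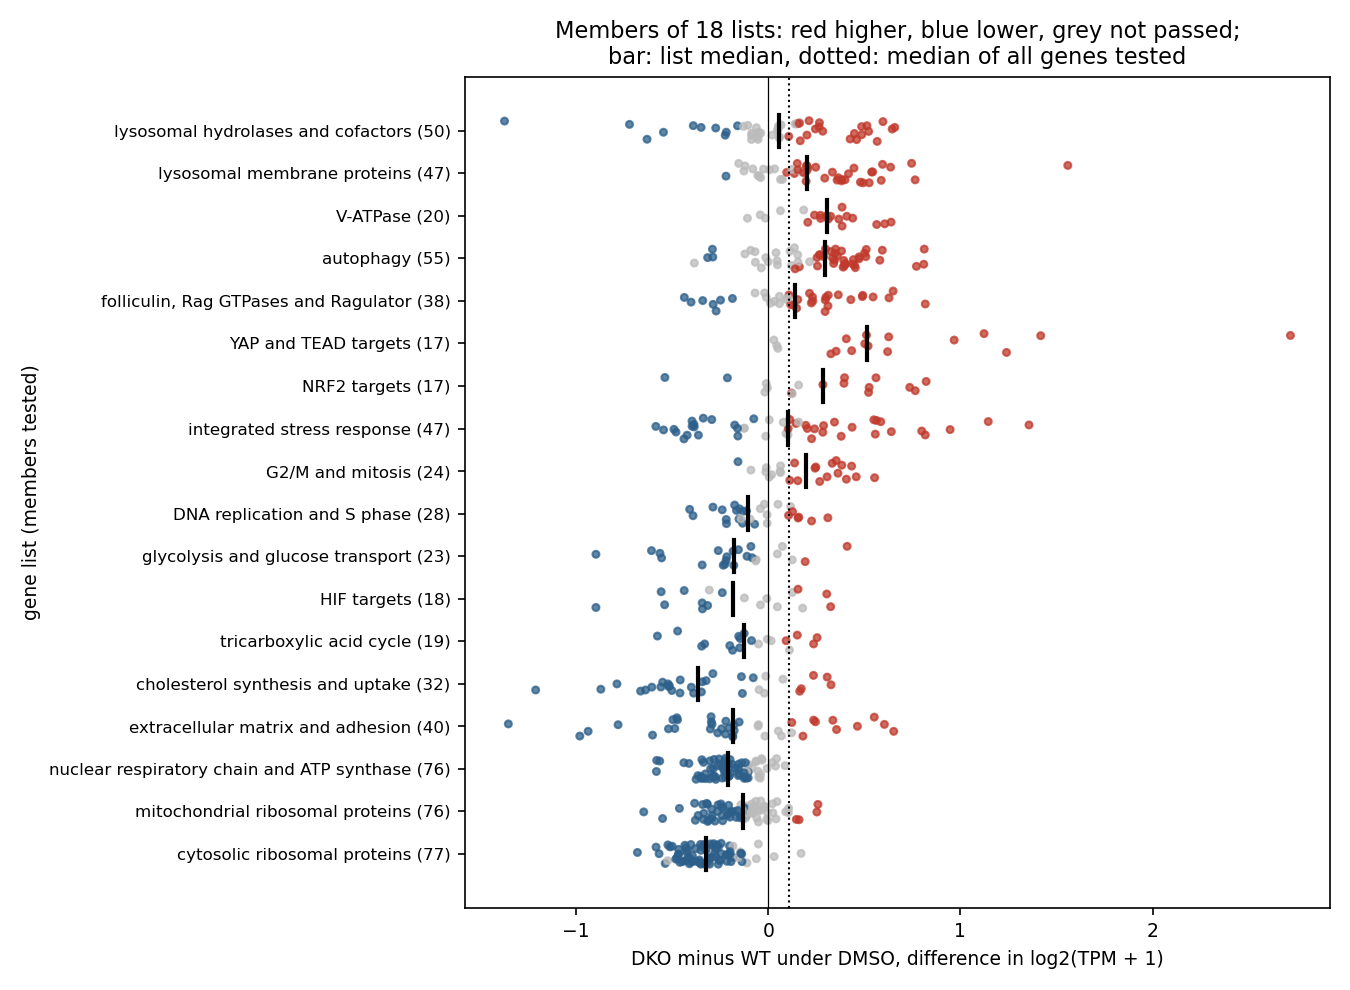
Each point is a tested gene of 1 of 18 lists, placed at its DKO minus WT difference in log2(TPM + 1) under DMSO and coloured by its call. The black bars mark list medians, which run from -0.37 for cholesterol synthesis to 0.51 for YAP and TEAD targets, and the dotted line marks the median of all genes, 0.11.

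Targets with and without a promoter E-box differed by like amounts between the lines. RefSeq promoters, 250 bases before to 50 after the annotated start, were matched to 10128 of the 13746 tested genes and to 28 of the 44 tested targets. CACGTG, which reads the same on both strands, was found in 42.9% of the target promoters, in 30.8% of those of V-ATPase genes, in 25% of those of lysosomal hydrolases, in 18.4% of those of lysosomal membrane proteins and in 8.70% of those of autophagy genes. It was found in 10.2% of promoters of all genes tested. A high share was not particular to these lists: 42.9% of HOX and 41.4% of ribosome biogenesis promoters also held it. Among genes called higher in DKO cells 11.4% held it, against 9.67% of genes called lower and 9.46% of those not called. The longer TCACGTGA, which contains CACGTG, was in 2.87% of promoters of genes called higher and in 1.30% of those called lower, against 2.01% for all tested. Of the 12 targets with a CACGTG 10 rose and none fell (median 0.43), and of the 16 without it 13 rose and 1 fell (median 0.41). These matches describe the letters in this window only.

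The gene furthest apart between the lines was HSPA6, an inducible member of the HSP70 chaperone family (1, 161524540 to 161526897, plus strand). It had 30.3, 31.8 and 34 TPM in DKO libraries, against 0.553, 0.131 and 0.354 TPM in WT libraries. No WT library reached 1 TPM and the DKO libraries lay close together, a rise of 4.63 ± 0.09 (adjusted p = 6.1e-25). HSPA6 shares most of its sequence with HSPA7, which averaged 0.941 TPM in DKO cells and 0.0137 TPM in WT cells, so reads could be split between them. In a list of heat shock genes chosen after the levels had been seen, 15 of 18 tested genes rose (median 0.51). This was 83.3%, beside 37.6% of all genes. The 1 that fell was the mitochondrial co-chaperonin HSPE1. Median-ratio scaling gave 11 higher and 2 lower (median 0.37). HSPB8, a small heat shock protein that works with BAG3, averaged 9.99 ± 0.089 TPM in DKO cells and 5.09 ± 0.32 TPM in WT cells, a rise of 0.85. The 80 bases shown here, chosen for a GAANNTTC match in capitals, which holds inverted units of the heat shock element and reads the same on both strands, are at chr1:161524431-161524510 on the plus strand for HSPA6 and at chr12:119178803-119178882 on the plus strand for HSPB8.
HSPA6: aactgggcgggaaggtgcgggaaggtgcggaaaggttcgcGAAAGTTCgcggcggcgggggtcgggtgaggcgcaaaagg
HSPB8: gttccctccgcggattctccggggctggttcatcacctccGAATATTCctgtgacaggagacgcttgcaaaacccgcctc

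GAANNTTC was in 57.1% of the promoters of the heat shock list that were matched, against 4.26% of promoters of all genes tested. The motif was searched after the levels were seen.

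Targets of the YAP and TEAD factors, which relay cell shape and contact to transcription, were mostly higher. Of 17 tested, 14 rose and none fell, with a median of 0.51, and median-ratio scaling gave the same counts of 14 and 0, while removal of the length trend gave 11 and 2 (median 0.32). ANKRD1, an ankyrin repeat protein, had 14.6, 12.9 and 12.1 TPM in DKO libraries, against 1.60, 1.08 and 0.850 TPM in WT libraries, a rise of 2.72 ± 0.13 (adjusted p = 3.4e-16). CYR61, a secreted matricellular protein, had 46.2, 44 and 45.1 TPM in DKO libraries, against 16.8, 14.9 and 17.1 TPM in WT libraries, a rise of 1.42. CTGF, its relative, rose by 1.24. None of these genes had a DKO library within the range of the WT libraries. ANKRD1 (chr10:90921176-90921255, minus strand) and CTGF (chr6:131951462-131951541, minus strand) are shown for the TEAD-binding letters GGAATG in capitals.
ANKRD1: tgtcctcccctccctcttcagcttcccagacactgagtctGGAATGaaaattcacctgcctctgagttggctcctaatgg
CTGF: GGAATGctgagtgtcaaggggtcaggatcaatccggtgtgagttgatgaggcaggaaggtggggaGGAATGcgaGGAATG

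GGAATG, searched on both strands, was in 58.3% of the matched promoters of the YAP and TEAD list and in 10.5% of promoters of all genes tested.

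Immediate-early and ERK-responsive genes were also higher, in lists chosen after the levels were seen. Of 15 immediate-early genes 12 rose and 1 fell (median 0.70), and of 13 feedback genes of the ERK kinase pathway 11 rose and none fell (median 0.57). EGR1, a zinc finger factor, averaged 15.5 ± 1.2 TPM in DKO cells and 6.55 ± 0.75 TPM in WT cells, a rise of 1.13. FOSL1, a subunit of the AP-1 factor, rose by 1.08, and DUSP1, a phosphatase of MAP kinases, by 1.27. ETV4, an ETS factor induced by ERK, had 2.73, 2.53 and 2.70 TPM in DKO libraries, against 0.432, 0.459 and 0.195 TPM in WT libraries. MYC was the immediate-early member that fell, by 0.44.

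The other genes among the 12 largest rises were of several kinds. INA, a neuronal intermediate filament protein, averaged 5.98 ± 0.31 TPM in DKO cells and 1.29 ± 0.075 TPM in WT cells. CLU, the extracellular chaperone clusterin, averaged 37.1 ± 1.4 and 13.6 ± 0.56 TPM, and ANXA1, a phospholipid-binding annexin, 14.2 ± 0.80 and 4.93 ± 0.84 TPM, in DKO and WT cells. MAGEA1, a cancer-testis antigen with near-identical copies on the X chromosome that may share its reads, rose by 1.68. DHRS2, a short-chain dehydrogenase, rose by 1.30 and MAFF, a small Maf factor, by 1.29.

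The 12 largest falls also mixed functions. CA2, carbonic anhydrase 2, had 41.7, 39.9 and 42.2 TPM in DKO libraries, against 110.4, 104 and 107 TPM in WT libraries, a fall of 1.35 ± 0.04. Its relative without catalytic activity, CA8, fell by 1.13. SULF1, which trims sulfates from heparan sulfate, averaged 2.44 ± 0.11 TPM in DKO cells and 6.92 ± 0.53 TPM in WT cells, a fall of 1.20. SNCG, γ-synuclein, fell by 1.44, the proteoglycan SPOCK3 by 1.35, the kynurenine aminotransferase KYAT1 by 1.14, LGALS3BP, a secreted galectin-binding glycoprotein, by 1.10 and the esterase BCHE by 1.08. HBQ1, a globin gene, had 0.626, 1.78 and 1.15 TPM in DKO libraries, against 5.69, 4.21 and 5.15 TPM in WT libraries. KRTAP19-1, a hair keratin-associated protein, averaged 2.04 ± 0.18 and 6.34 ± 2.88 TPM in DKO and WT cells, and 1 WT library, at 9.67 TPM, made most of that spread.

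Cholesterol synthesis and uptake genes were mostly lower: 23 of 32 fell and 5 rose, with a median of -0.37, and 25 fell and 1 rose with median-ratio scaling. INSIG1, which holds the SREBP escort protein in the endoplasmic reticulum and is itself an SREBP target, had 47.1, 46 and 47.4 TPM in DKO libraries, against 114, 108 and 108 TPM in WT libraries. The lines did not overlap, and the fall was 1.21 ± 0.05 (adjusted p = 5.0e-18). MSMO1, a sterol C4-methyl oxidase, averaged 25.2 ± 0.58 TPM in DKO cells and 47 ± 3.7 TPM in WT cells, a fall of 0.87. STARD4, a sterol carrier, fell by 0.79. The rises were FASN (fatty acid synthase, 0.33), TM7SF2 (a sterol reductase, 0.31) and PMVK (phosphomevalonate kinase, 0.24) and 2 smaller ones. FASN lost its call with the length trend removed (0.03), and TM7SF2 and PMVK lost theirs with median-ratio scaling (0.18 and 0.10).

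Respiratory chain and ribosomal protein genes were mostly lower. Of 76 respiratory chain and ATP synthase genes encoded in the nucleus, 58 fell and none rose (median -0.21), and median-ratio scaling gave 72 and 0. NDUFA13, a subunit of complex I, had 216, 228 and 221 TPM in DKO libraries, against 326, 324 and 333 TPM in WT libraries, a fall of 0.57 ± 0.05. NDUFB1 of complex I and ATP5G2 of the ATP synthase ring fell by 0.58 each. Of 77 cytosolic ribosomal protein genes, 67 fell and none rose (median -0.32). RPS3A averaged 131 ± 6.6 TPM in DKO cells and 211 ± 10.1 TPM in WT cells, a fall of 0.68, while RPS25 and RPS10 fell by 0.58 and 0.57. These genes have many processed pseudogenes, which may take reads. Summed, cytosolic ribosomal protein genes made up 12.7%, 13.1% and 12.7% of the TPM in DKO libraries, against 15.9%, 15.9% and 15.8% in WT libraries. Mitochondrial ribosomal protein genes fell in 39 and rose in 4 of 76 cases (median -0.13), with MRPL54 lower by 0.65 and MRPS34 by 0.55.

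The line difference moved with transcript length. The median difference of protein-coding genes was -0.11 for transcripts up to 1 kb, 0.03 at 1 to 2 kb, 0.09 at 2 to 3 kb, 0.13 at 3 to 4 kb, 0.17 at 4 to 6 kb and 0.25 above 6 kb. Of the 787 genes up to 1 kb, 106 were called higher and 307 lower. Ribosomal and respiratory chain transcripts are short. Each group had a lower median than other protein-coding genes on either side of 1 kb. Above 1 kb the genes compared were not matched in length, as that class spans the medians of 0.03 to 0.25 given above. The 61 ribosomal protein genes up to 1 kb had a median of -0.32 against -0.08 for other protein-coding genes of that length, and the 16 above 1 kb had -0.33 against 0.12. The 47 respiratory chain genes up to 1 kb had -0.22 against -0.10, and the 29 above 1 kb -0.20 against 0.12. With the length trend taken off each library, 49 respiratory chain genes were still called lower and 2 higher, and 66 ribosomal protein genes lower and 1 higher. The part of RNA quality or library preparation in the length trend was not tested.

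**Figure D4:**
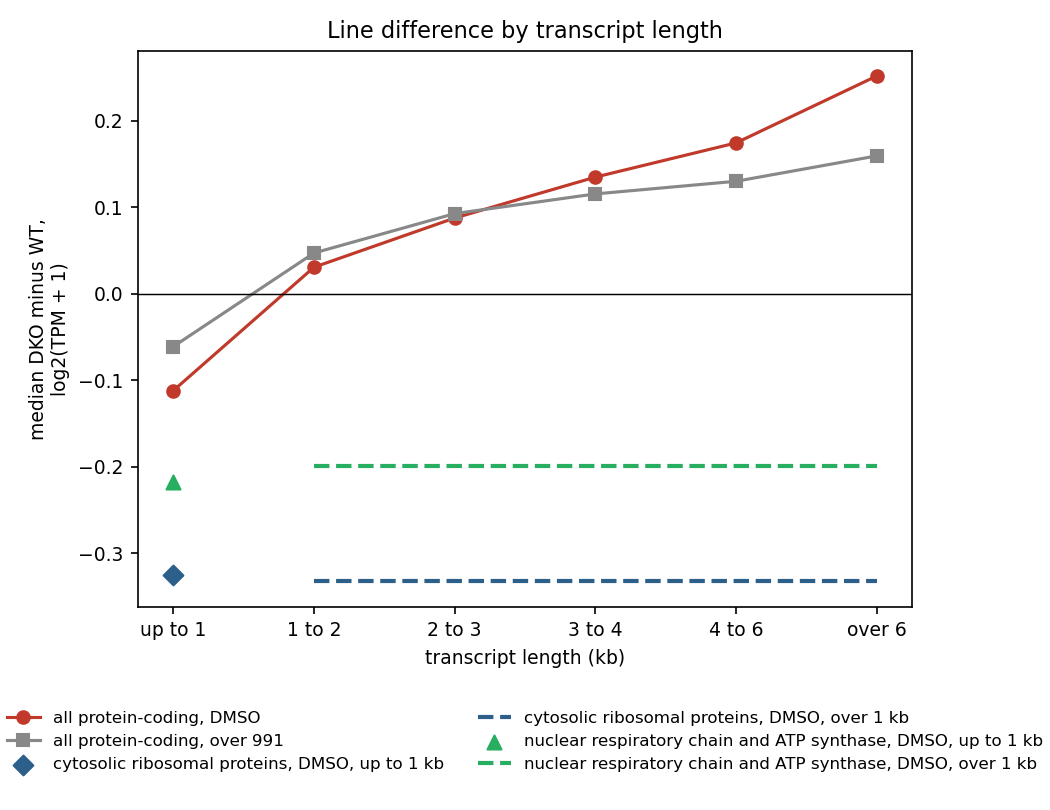
Median DKO minus WT difference in log2(TPM + 1) of protein-coding genes in 6 classes of transcript length, under DMSO (red) and over 991 (grey), with the medians of ribosomal protein genes (blue) and respiratory chain genes (green) up to 1 kb and above it. The all-gene lines climb with length, under DMSO to 0.25 above 6 kb, while both gene groups stay at or below -0.20 on either side of 1 kb.

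Other parts of central metabolism were lower as well. In the tricarboxylic acid cycle list 11 of 19 genes fell and 4 rose (median -0.13), with SUCLG2, a subunit of succinyl-CoA ligase, lower by 0.58 and IDH2, mitochondrial isocitrate dehydrogenase, by 0.47. In glycolysis and glucose transport 16 of 23 fell and 2 rose (median -0.18). PDK1, the kinase that restrains pyruvate dehydrogenase, averaged 5.77 ± 0.26 TPM in DKO cells and 11.7 ± 2.2 TPM in WT cells, a fall of 0.90. PGK1, phosphoglycerate kinase, had 237, 234 and 236 TPM in DKO libraries, against 339, 355 and 353 TPM in WT libraries, and ALDOC, an aldolase, fell by 0.61. ENO2, an enolase of neurons, rose by 0.41. HIF1A, the oxygen-regulated factor that drives several of these genes, rose by 0.59, while 8 of 18 listed HIF targets fell and 3 rose. EGLN3 and P4HA1, both prolyl hydroxylases, fell by 0.56 and 0.54, and the histone demethylase KDM3A rose by 0.32. Among 17 genes of the PGC-1 and ERR coactivator pathway 5 rose and 3 fell, near the shares of all genes, and 3 were higher and 5 lower with median-ratio scaling, with NRIP1, a corepressor, higher by 0.32 (0.09 and not called with the length trend removed) and TFB1M, a mitochondrial rRNA methyltransferase, lower by 0.44.

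Integrated stress response genes were divided: of 47 tested, 22 rose and 17 fell (median 0.10), and the balance turned to 15 higher and 20 lower with median-ratio scaling (median -0.03) and to 17 and 21 with the length trend removed. DDIT3, the factor CHOP, had 20.9, 19.6 and 17.5 TPM in DKO libraries, against 6.63, 6.07 and 8.16 TPM in WT libraries, a rise of 1.36 ± 0.10 (adjusted p = 3.7e-12). DDIT3 overlaps MARS, so reads of the neighbour may enter without strand. PPP1R15A, which restores translation by dephosphorylating eIF2α, rose by 1.15 and ATF3, a stress-induced factor, by 0.95. The falls with the largest size were DDIT4, an inhibitor of mTORC1, by 0.59, SHMT2, the mitochondrial serine hydroxymethyltransferase, by 0.55 and PCK2, mitochondrial phosphoenolpyruvate carboxykinase, by 0.49. NRF2 targets rose in 10 (58.8%) and fell in 2 (11.8%) of 17 cases (median 0.28), beside 37.6% and 13.7% of all genes. Median-ratio scaling gave 9 higher and 4 lower, and removal of the length trend gave 8 and 5 (median 0.14). HMOX1, heme oxygenase 1, averaged 31.5 ± 3.1 TPM in DKO cells and 18.5 ± 1.5 TPM in WT cells, the heme transporter SLC48A1 3.81 ± 0.13 and 1.73 ± 0.30 TPM, and GCLM, a subunit of the glutathione-making enzyme, rose by 0.77. TKT, transketolase, fell by 0.54.

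Cell cycle lists moved in opposite directions. Of 24 genes of G2 and mitosis 15 rose and 1 fell (median 0.20), though with median-ratio scaling 10 rose and 7 fell. PRC1, which bundles spindle microtubules, averaged 133 ± 1.3 TPM in DKO cells and 96.6 ± 4.4 TPM in WT cells, and CENPF, a kinetochore protein, and CDC20, an activator of the anaphase-promoting complex, rose by 0.55 and 0.43. BIRC5, survivin, fell by 0.16. Of 28 genes of DNA replication 14 fell and 6 rose (median -0.10; 20 and 1 with median-ratio scaling), with LIG1, DNA ligase 1, lower by 0.41, GINS1, a part of the replicative helicase, by 0.39 and the polymerase POLE higher by 0.31 (0.02 and not called with the length trend removed). Ribosome biogenesis genes rose in 12 (33.3%) and fell in 10 (27.8%) of 36 cases, against 37.6% and 13.7% of all genes. They rose in 7 and fell in 20 cases with median-ratio scaling, and in 6 and 16 with the length trend removed. RRP12, a ribosome export factor, was higher by 0.52 and the nucleolar proteins NPM3 and LYAR lower by 0.57 and 0.40.

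Some single genes of cell identity differed between the lines. VIM, the intermediate filament protein vimentin (10, 17228259 to 17237593, plus strand), had 542, 537 and 535 TPM in DKO libraries, against 253, 272 and 257 TPM in WT libraries, a rise of 1.04 ± 0.03. It overlaps the antisense transcript VIM-AS1. The neuronal tubulin TUBB3 rose by 1.09, while the neurofilament NEFM and the neuronal hydrolase UCHL1 fell by 0.54 and 0.34. Of the 22 tested kidney, adrenal and neural genes listed for 293 cells, 8 rose, 3 fell and the others did not pass, 36.4% and 13.6% beside 37.6% and 13.7% of all genes, so the list as a whole sat at the background. Of 20 markers of other cell types 4 were tested. COL3A1, LUM and COL1A1, collagens and a matrix proteoglycan of fibroblasts, fell by 0.94, 0.30 and 0.21. The call of LUM was lost without DKO replicate 2 (-0.18) or WT replicate 1 (-0.27), and that of COL1A1, whose libraries overlap, without DKO replicate 2 or 3 or WT replicate 1 or 3 (-0.21 to -0.14). Together the 20 markers summed to 6.42 to 8.22 TPM in DKO libraries and to 9.77 to 10.2 TPM in WT libraries, with PTPRC, CD3E, HBB, KRT1 and MYH11 listed at 0 in all of them.

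Extracellular matrix and adhesion genes fell in 24 and rose in 10 of 40 cases (median -0.19). LAMA4, a laminin chain, averaged 2.99 ± 0.64 TPM in DKO cells and 6.91 ± 1.6 TPM in WT cells, while the integrin ITGAV and the adhesion molecule L1CAM rose by 0.60 and 0.65. HOX genes rose in 14 of 34 cases (41.2%, near the 37.6% of all genes) with no fall, and median-ratio scaling gave 8 higher and 5 lower. HOXA9 averaged 53.9 ± 2.0 TPM in DKO cells and 32.8 ± 1.1 TPM in WT cells, and HOXA6 and HOXD10 rose by 0.86 and 0.57. Of 29 protocadherin genes 25 rose and 1, PCDH9, fell by 0.17. Clustered protocadherins share exons, so their separate levels are uncertain. PCDH7, which lies outside the clusters, had 33.8, 26.2 and 31.6 TPM in DKO libraries, against 17.4, 14.9 and 18 TPM in WT libraries. Zinc finger genes of the ZNF family rose in 114 (30.4%) and fell in 19 (5.07%) of 375 cases, both below the 37.6% and 13.7% of all genes. With median-ratio scaling 64 rose and 50 fell. Of 11 imprinted genes 7 rose and none fell, and 5 were higher and 2 lower with median-ratio scaling, among them IGF2R, the receptor that carries enzymes to the lysosome, by 0.72.

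Along the genome the line difference was spread over all chromosomes. Chromosome medians ran from 0.06 on chromosome 6 to 0.15 on chromosome 9. In runs of 25 neighbouring tested genes the highest median, 0.47, lay in the protocadherin γ cluster of chromosome 5, and the lowest, -0.19, on chromosomes 11 and 20. Near the targeted genes, 9 of 16 genes listed by TFE3 rose (56.25%, against 37.6% of all genes) and 3 fell (18.75%, against 13.7%), TFE3 itself among the falls. The run of 25 genes from SLC35A2 to MIR6894 on the X chromosome, which spans TFE3, had a median of 0.34, with 15 higher and 3 lower. PLP2, a membrane protein gene beside TFE3, had 3.83, 3.64 and 4.61 TPM in DKO libraries, against 1.04, 0.891 and 1.03 TPM in WT libraries, a rise of 1.33 ± 0.14. GRIPAP1, also in that stretch, rose by 0.57. Of 10 listed neighbours of TFEB, 4 rose and 2 fell, which is near the share of all genes, with FOXP4, a forkhead factor, higher by 0.49 and CCND3, cyclin D3, by 0.30. No gene but the short noncoding RNA MIR3607 was at or below 0.1 TPM in every library of one line and at 1 TPM or more in every library of the other. MIR3607 was listed at 0 in the 3 DKO libraries and at 1.39, 1.32 and 2.29 TPM in the WT libraries, but reached 4.15 TPM in DKO libraries during 991. Without 1 DMSO library of either line, 1 to 4 genes met this rule.

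The same lines were also compared under 991, in libraries that do not enter the DMSO means but do share the gene filter and the estimate of spread. Averaged over 5 times, 7056 genes (51.3%) were higher and 2885 (21%) lower in DKO cells. Of the 5163 genes higher under DMSO 4589 (88.9%) were called higher in that average and 2153 (41.7%) at each of the 5 times. Of the 1884 lower genes 1545 (82%) and 653 (34.7%) were called lower in the same way. Of the 58 genes that rose at least 2-fold 39 were called higher at all 5 times, and of the 31 that fell 20 were called lower. GLA differed by -1.38, HSPA6 by 4.95, INSIG1 by -1.27, SQSTM1 by 0.80 and ANKRD1 by 2.86 in the average. Reported MiT/TFE targets were higher in 39 and lower in 3 of 44 cases over 991 (median 0.26).

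For 1674 genes the average difference under 991 departed from that under DMSO, upward in 648 (4.71%) and downward in 1026 (7.46%), and this count was 318 to 838 without the libraries of 1 replicate number and 1073 without WT DMSO replicate 1. DDIT3 differed by 1.36 under DMSO, 0.51 at 2 h, 0.75 at 4 h, 0.10 at 8 h, -0.29 at 16 h and -0.14 at 24 h. The change from DMSO to the 991 average was -1.17 (adjusted p = 3.8e-08). HMOX1 differed by 0.74 under DMSO and 0.83 at 2 h, and by -0.13 to 0.11 from 4 h on. SESN2 differed by 0.82 under DMSO and by 0.03 at 16 h. DDIT4 was lower in DKO cells by 0.59 under DMSO and by 1.38 in the average over 991.

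**Figure D5:**
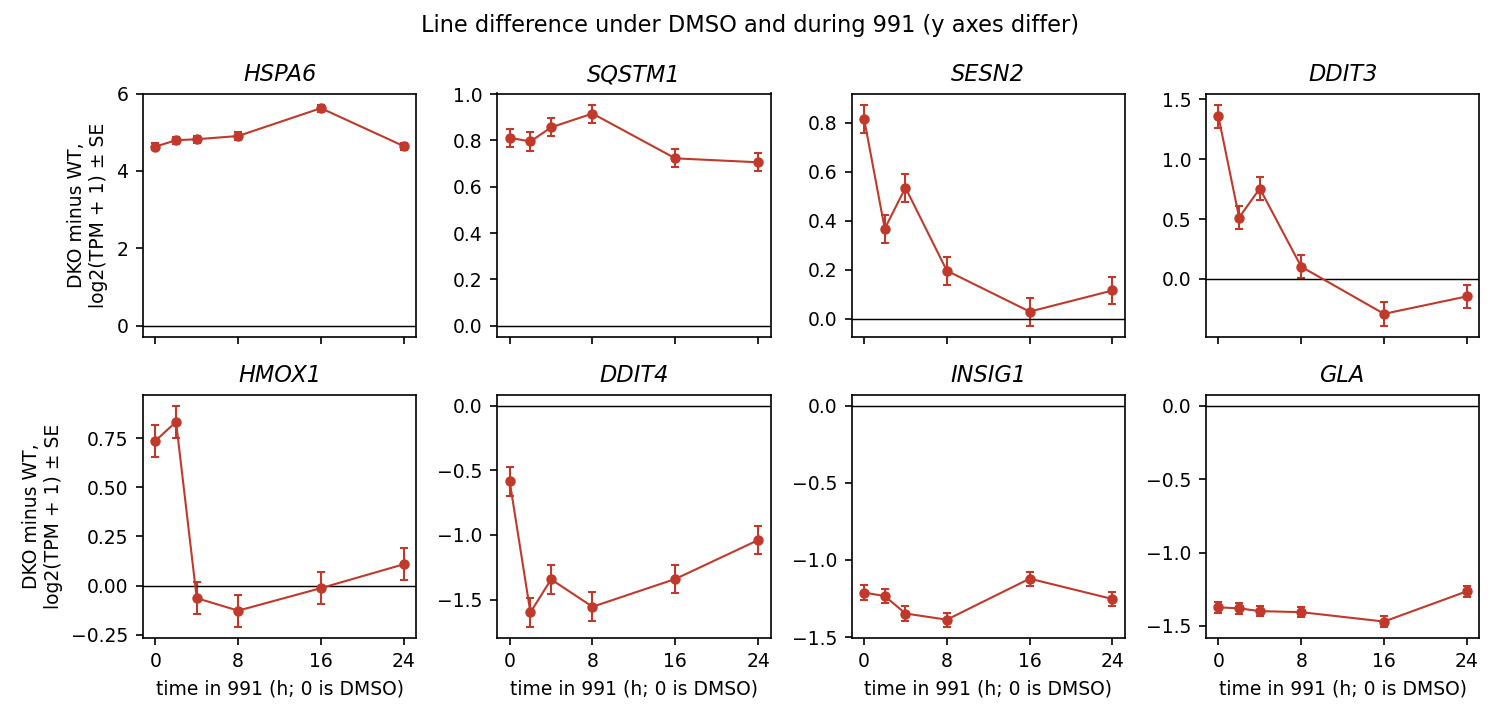
Difference of 8 genes, DKO minus WT in log2(TPM + 1) with its standard error, under DMSO (plotted at 0 h) and at 2, 4, 8, 16 and 24 h of 991, each gene on its own y axis. HSPA6, SQSTM1, INSIG1 and GLA keep their side of 0 at every time, while DDIT3 lies at 1.36 under DMSO and at -0.29 at 16 h.

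Other lines of the series place these levels, although their tables were normalized separately and no test joins them. They are AMPK KO and WT, ESRRA KO and WT, and FNIP1 SA5 and WT cells. The rest are control and treated cells of a knockdown experiment, whose target is not reported here. The groups also differ in FLCN, a gene of the folliculin complex. It averaged 858.5 TPM in ESRRA KO, 1012 TPM in ESRRA WT and 973.4 TPM in FNIP1 WT cells. AMPK KO and WT cells had 7.62 and 5.81 TPM, beside 8.71 and 7.31 TPM in the DKO and WT cells described here. The range given below thus spans cells with far more FLCN RNA and cells with FLCN levels near those of the lines compared here. The highest levels of GLA and INSIG1 in it came from AMPK WT and AMPK KO cells. Under DMSO, AMPK KO cells differed from their WT cells in 5299 genes (38.9%) and ESRRA KO cells in 2870 (21.5%), each from the fit of its own table. At least 2-fold differences were called in 119 and 16 genes in these tables. For 18 of the 31 genes that fell at least 2-fold (58.1%), the WT mean of the TFEB and TFE3 table lay outside the range of the 8 other DMSO groups while the DKO mean lay within it, against 11.7% of all genes tested. GLA, for one, averaged 223 ± 8.0 TPM in DKO cells and 580.1 ± 28.5 TPM in WT cells, with 90.4 to 317 TPM in the other groups, and INSIG1 averaged 46.9 TPM in DKO cells and 109.8 TPM in WT cells, with 21 to 59.7 TPM in the other groups. Of the 58 genes that rose at least 2-fold, the WT mean alone lay outside in 5 and the DKO mean alone in 24 (41.4%), against 22% of all genes. Both means lay outside in 21 of these 58. For the 31 falls the DKO mean alone lay outside in 7 (22.6%). These genes were picked for their difference in these same libraries, which by itself favours a mean outside the range. The shares of all genes are therefore not a like reference. HSPA6 was at 0.248 TPM or less in the other groups. In 1 of those groups, the FNIP1 SA5 cells, replicate 1 stood apart, with 9834 genes at 1 TPM or more beside 12040 and 12036 in the others. Without that group the WT mean alone lay outside for 17 of the 31 falls (54.8%, against 14% of all genes) and the DKO mean alone for 22 of the 58 rises (37.9%, against 21.7%).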

How the data were processed

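Polyadenylated RNA was sequenced from HEK293T cells, and the submitters' processing notes name FastQC, STAR, HOMER and build GRCh38. The deposited values are TPM per gene and library, made by the authors; versions, strand handling and read depth are not given in the sources used here. TPM sums over the table ran from 400908 to 413850 per library.

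From these values, log2(TPM + 1) was fitted with limma 3.58.1 in R 4.3.3 (mean-variance trend, 1 mean for each of 12 groups, all 36 libraries), keeping genes with at least 1 TPM in at least 3 libraries, 13746 of 27234. Contrasts were DKO minus WT under DMSO, its mean over 5 times of 991, and the difference of these. Adjusted p is Benjamini-Hochberg over all genes kept, with a threshold of 0.05. No count model was used, and the fit was tested on simulated data. No libraries held identical values. Other lines were fitted within their own tables.

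Genes named are the MiT/TFE factors, the 12 largest rises and 12 largest falls among called genes whose libraries do not overlap and whose higher line averages at least 5 TPM, up to 3 rises and 3 falls of each gene list, and reported targets. The comparison and 33 gene lists were chosen with earlier results of these data known, and 3 lists (heat shock, immediate-early, ERK feedback) and the heat shock and TEAD motifs after the levels were seen. MIR3607 and HSPA7 are named outside this rule. Promoters are RefSeq's, GRCh38.p14, matched by RefSeq transcript, or by symbol where that failed. They had to lie on the same chromosome and strand, within 1000 bases of the deposited gene's start. Alternatives were median-ratio scaling, quantile normalization, pseudocount 0.1, other filters, the 6 DMSO libraries alone, a replicate block, removal of the median deviation in 20 bins of transcript length and a placing among other groups without FNIP1 SA5 cells (both added after the data were seen), and leaving out single libraries.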

Additional observations from a re-analysis of the deposited data

Results flagged for a closer look

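The line difference of 36 of 134 named genes departed between DMSO and 991. The test was of that difference itself (limma, adjusted p under 0.05 over all 13746 genes). Of all genes tested, 4.71% departed upward and 7.46% downward, 1674 genes in all. That total was 318, 838 and 536 without the libraries numbered 1, 2 and 3, where fewer libraries entered. Values here are the mean DKO minus WT difference over 991 less that under DMSO, in log2(TPM + 1). Among stress genes the change was -1.17 for DDIT3, -0.79 for DDIT4, -0.59 for HMOX1, -0.57 for SESN2 and -0.35 for SLC48A1. DDIT4 moved further from the WT level under 991, while the differences of DDIT3, HMOX1, SESN2 and SLC48A1 were smaller there.

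Among lysosomal genes it was -0.49 for SLC29A3, -0.35 for SUMF1, -0.30 for HEXA, 0.22 for CTSC, 0.26 for ABCA2 and 0.36 for IFI30. In autophagy and nutrient sensing it was -0.33 for NBR1, -0.26 for GABARAPL1, -0.29 for FNIP2, -0.25 for MTOR and 0.23 for LAMTOR4. PGF changed by 0.47, being -0.22 and not called under DMSO and 0.25 over 991.

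For mitochondrial and ribosomal genes the change was 0.33 for NDUFB1, 0.13 for ATP5G2, 0.29 for MRPS34, 0.22 for RPS25, 0.19 for RPS10 and 0.26 for LYAR, so that these falls were smaller under 991. In metabolism it was 0.23 for MSMO1, 0.29 for STARD4, 0.13 for PGK1, -0.26 for FASN, -0.21 for HIF1A and -0.27 for NRIP1. Among the largest rises and falls it was 0.33 for HSPA6, -0.40 for DHRS2, 0.16 for CA2, 0.38 for CA8 and 0.47 for BCHE, and for VIM and IGF2R it was -0.19 and -0.37. Most of these genes were named for the size of their difference under DMSO. That choice by itself favours a smaller difference under 991. What lies behind these changes was not tested.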

How the results depend on the processing

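The number of genes called between the lines under DMSO was 7047, and 6097 to 7159 under the other scalings, pseudocount, filters, the 6 DMSO libraries alone and the length correction, apart from 5903 among the 9919 genes with at least 5 TPM, where fewer were tested. Its direction was not as firm: 73.3% of calls were higher in DKO cells, against 47.6% with median-ratio scaling, 52.6% with quantile normalization and 48.1% with the length trend removed. Leaving out a DMSO library gave 6354 to 6603 genes. With the replicate number as a block 7060 genes were called, and the 134 named genes kept their calls. Same-numbered libraries did not deviate together (correlations of 0.004, 0.026 and 0.028), so no shift shared by number was seen. Whether libraries of the same number were handled together is not stated in the labels.

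The count of genes whose line difference departed between DMSO and 991 was 1674, 1770 with median-ratio scaling and 1710 with the replicate block. It was 1073 to 1439 without a DMSO library, lowest without WT replicate 1, and 318, 838 and 536 without the libraries numbered 1, 2 and 3, where fewer libraries entered. The genes in 1 line numbered 1, and 1 to 4 without a library. TMEM55A, at 0.07 and not called, turned to -0.0318 with median-ratio scaling, -0.0525 with quantile normalization and -0.00439 with the length trend removed, and lay between -0.0212 (without DKO replicate 2) and 0.124 (without DKO replicate 1) with a library left out. NRBF2, at -0.01 and not called, lay between -0.056 (without WT replicate 3) and 0.0399 (without WT replicate 1). The cause was not tested. Of 134 named genes 124 kept direction and call with median-ratio scaling, 123 with quantile normalization, 122 with the length correction and 129 to 133 without a single library. TPM keeps no depth, so what depth limits cannot be stated.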
